A study of Homo sapiens with 16 samples.

Results

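The broad open domains described here are 757 stretches of open chromatin on chromosomes 1 to 22 (hg19) that carried an ATAC-seq peak in every one of 10 paired-end libraries of IMR-90 fibroblasts. ATAC-seq marks open chromatin by letting a transposase cut it. Peaks of the 10 lists that overlapped by 1 bp or more were merged into 149504 regions, and 37197 of these had a peak in every list. The 757 domains are those with a merged width of 2000 bp or more, 2.04% of the 37197, and the other 36440 are called narrower regions below. A further 131 regions of at least 2000 bp lacked a peak in 1 or more lists and were left out. Presence and merged width chose the domains and are given as a description.

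The cells were IMR-90 ER:Ras, human lung fibroblasts of a single established line that carry a RAS oncogene fused to a steroid hormone receptor domain, and enter oncogene-induced senescence over 6 days of 4-hydroxytamoxifen (4-OHT) at 100 nM. All cells received siRNA. The paired-end libraries were 2 of 4-OHT-treated cells with siRNA against FOXF1/2 (siFOXF1/2), 2 of 4-OHT-treated cells with knockdown of JUN-family members (JUN-KD), 4 of 4-OHT-treated cells with control siRNA (Sen) and 2 of cells with control siRNA and no 4-OHT (Pro). The JUN-KD libraries are titled for cJUN and JUND while their treatment label also names JUNB, and the Pro libraries are titled proliferating while their cell type label says senescent. The 6 single-end libraries, which had no part in choosing the domains, were 2 of Sen cells with siRNA against p300/CBP (sip300/CBP), 2 with siRNA against p65 (sip65) and 2 of Sen cells with control siRNA.

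Most open regions of a mammalian genome are short sites left by the displacement of 1 or a few nucleosomes, while wide ones form where sites lie close together, typically at promoters in CpG islands and at clustered enhancers. JUN proteins are subunits of AP-1, a factor that binds many fibroblast enhancers, and FOXF1 and FOXF2 are forkhead factors of mesenchymal cells, lung included. p300 and CBP are histone acetyltransferases recruited to enhancers and promoters, and p65 is the RELA subunit of NF-kB. Genes at the domains were not looked up, since no annotation or sequence of hg19 was used here, so each domain is given by position.

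The lists gave no read counts. As a rough stand-in for depth, the background coverage was taken, the 1st percentile of the local coverage behind the listed peaks. It was 2.61 and 1.93 in siFOXF1/2, 3.08 and 2.01 in JUN-KD, 2.5 to 3.06 in Sen and 1.74 and 1.98 in Pro. The lists held 105828 and 100125 autosomal peaks in siFOXF1/2, 61426 and 58955 in JUN-KD, 96512 to 100656 in Sen and 63860 and 64904 in Pro. Peak names inside the lists fall into 2 styles, 1 shared by siFOXF1/2, Sen replicates 1 and 2 and Pro, the other by JUN-KD and Sen replicates 3 and 4. The shortest listed peak was 160 to 188 bp in the first set and 136 to 159 bp in the second. Whether the lists were made with other settings was not tested. No label states whether replicates came from separate cultures, and p-values measure the spread between these libraries only. In a bulk library, a wider or higher signal in every cell and a signal in more of the cells cannot be told apart.

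Most domains were just past the width limit, and a few were far wider. The median merged width was 2246 bp, with 25th and 75th percentiles of 2095 and 2481 bp, against a median of 829 bp for the narrower regions. The 95th percentile was 3402 bp and the widest domain reached 65211 bp. Of the 757 domains, 576 (76.1%) were under 2500 bp, 57 were 3000 bp or more, 14 were 5000 bp or more and 7 were 10000 bp or more. Those 14 made up 238 kb (12.0%) of the 1990 kb that all domains spanned.

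The limit cut through a continuous range of widths. Just inside it, chr10:52383231-52385230 and chr20:39317294-39319293 were each 2000 bp wide, with a median covered width over the 10 libraries of 1830.5 bp (1659 to 1989 bp) and 1467.5 bp (1138 to 2000 bp). Just outside, chr9:137028531-137030529 was 1999 bp wide and chr10:18452844-18454841 was 1998 bp wide, with medians of 1631 bp (942 to 1968 bp) and 1378 bp (1090 to 1998 bp). Covered width is the number of base pairs of a region that lie under the peaks of 1 library.

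The widest domains lay beside long stretches of a chromosome with no peak in the lists used here. There were 40 such stretches of 2.5 Mb or more. Within 1 Mb of one lay 12 of the 14 domains of 5000 bp or more (85.7%), 12 of 43 domains of 3000 to under 5000 bp (27.9%) and 15 of 700 domains under 3000 bp (2.14%), against 599 of the 36440 narrower regions (1.64%). As background, the flanks of centromere gaps in a genome build are rich in repeats shared by several places, where short reads cannot be placed with certainty, and the lists give no mapping quality. A domain of 5000 bp or more had a median of 2.5 other regions within 50 kb, against 10 for a domain of 2000 to under 2500 bp.

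**Figure D1:**
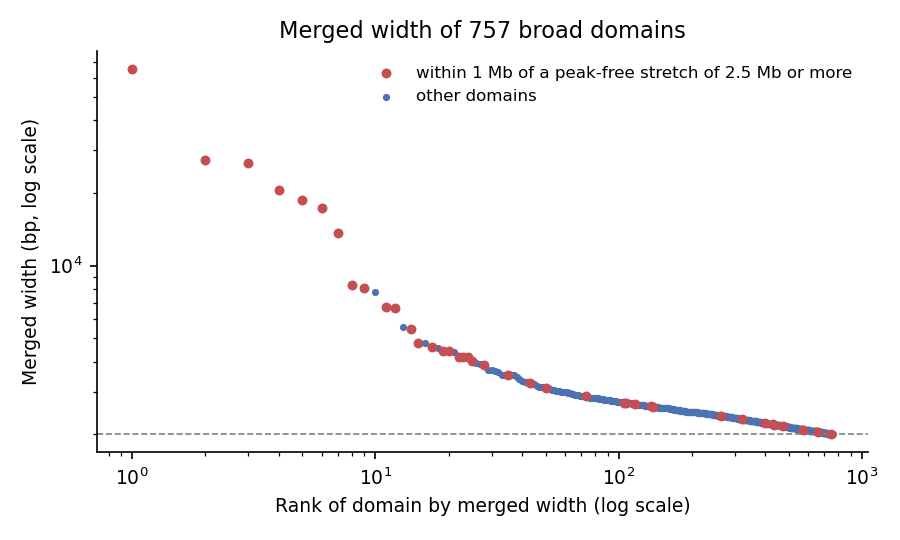
Merged width of the 757 domains in bp against their rank, both on log scales. Red points lie within 1 Mb of a stretch of 2.5 Mb or more with no listed peak, and the dashed line is the limit of 2000 bp; the curve is flat from rank 57, where the width is about 3000 bp, and climbs to 65211 bp; 12 of the 14 points at 5000 bp or more are red, against 12 of the 43 between 3000 and 5000 bp.

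The widest domain, chr4:49093323-49158533, was covered over 44899 and 32969 bp in siFOXF1/2, 62259 and 58890 bp in JUN-KD, 58799, 53730, 57952 and 59294 bp in Sen and 64998 and 64145 bp in Pro. The siFOXF1/2 libraries were the lowest and Pro the highest, and neither overlapped Sen. Neither difference passed the test on centred width described below (limma adjusted p = 0.35 for siFOXF1/2 against Sen and 0.26 for Sen against Pro). In centred width, siFOXF1/2 lay below Sen without overlap in 14.2% of all regions, and Sen below Pro in 27.9%. It held 13 and 13 peaks in siFOXF1/2, 5 and 6 in JUN-KD, 9, 10, 6 and 7 in Sen and 1 and 2 in Pro, so the siFOXF1/2 libraries, where it was covered least, also held the most peaks. Its 72 peaks over the 10 lists were the most of any domain. In the single-end libraries, whose peak names carry a tag for duplicate removal, it was covered over 102 and 180 bp in sip300/CBP, 194 and 113 bp in sip65 and 190 and 400 bp in Sen.

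Cover was also lowest in siFOXF1/2 in other very wide domains. At chr8:46839613-46856896, covered width was 5443 and 3468 bp in siFOXF1/2, 16446 and 16156 bp in JUN-KD, 11048, 5663, 15814 and 15330 bp in Sen and 15385 and 13387 bp in Pro, and Sen replicate 2 was close to siFOXF1/2. At chr2:92305385-92326028 the libraries were close, with 18068 and 17931 bp in siFOXF1/2, 20533 and 20339 bp in JUN-KD, 20325 to 20522 bp in Sen and 20510 and 20480 bp in Pro. Neither the chromosome 8 nor this domain was called for siFOXF1/2 against Sen (limma adjusted p = 0.11 and 0.53). In the median of the 14 domains of 5000 bp or more, peaks covered 73.4% and 56.3% of the merged width in siFOXF1/2, 98.3% and 94.5% in JUN-KD, 82.4% to 93.6% in Sen and 97.8% and 96.9% in Pro. Among the 576 domains of 2000 to under 2500 bp the order was another: 87.7% and 82.0% in siFOXF1/2, 50.6% and 44.9% in JUN-KD, 66.2% to 90.6% in Sen and 63.7% and 69.7% in Pro.

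Across all 757 domains, covered width was smallest in JUN-KD. The median domain was covered over 1961 and 1859 bp in siFOXF1/2, 1157 and 1041 bp in JUN-KD, 2020, 1995, 1811 and 1508 bp in Sen and 1444 and 1608 bp in Pro. JUN-KD lay below every other library, and siFOXF1/2 lay within the range of Sen. The lowest Sen library, replicate 4, had 1508 bp, below the higher Pro library at 1608 bp. The narrower regions had the same order of groups, with medians of 706 and 663 bp in siFOXF1/2, 438 and 411 bp in JUN-KD, 703, 685, 637 and 553 bp in Sen and 481 and 523 bp in Pro. Domains were therefore 2.78 and 2.80 times as wide as narrower regions in siFOXF1/2, 2.64 and 2.53 times in JUN-KD, 2.73 to 2.91 times in Sen and 3.00 and 3.07 times in Pro.

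**Figure D2:**
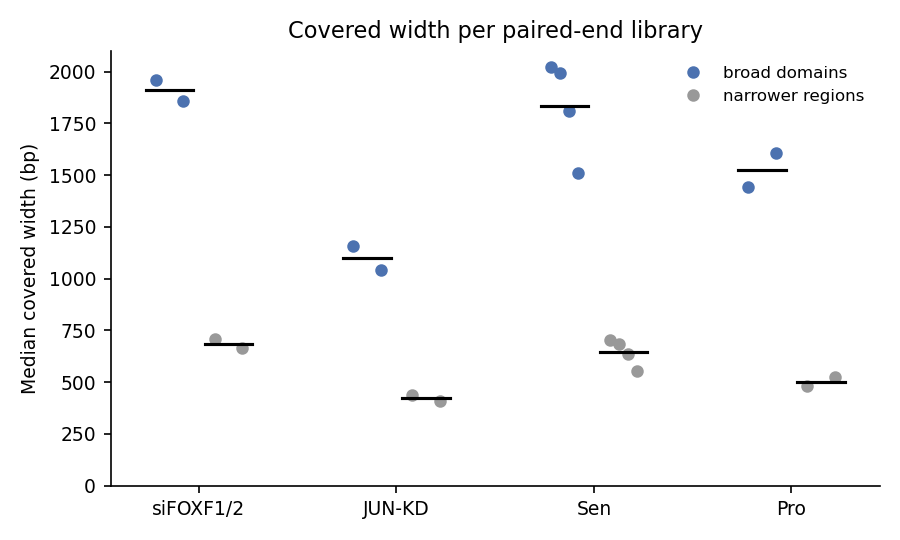
Median covered width in bp of the domains and of the narrower regions in each paired-end library, by group; points are libraries and bars are group means. In the domains the JUN-KD libraries sit at 1157 and 1041 bp, below all others, and the 4 Sen libraries spread from 1508 to 2020 bp.

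The merged width is a union, so the libraries with the widest peaks did most to choose the domains. Merging the 2 siFOXF1/2 lists alone, 357 of the 757 domains reached 2000 bp, against 67 with the 2 JUN-KD lists, 575 with the 4 Sen lists (482 with replicates 1 and 2, 206 with replicates 3 and 4) and 153 with the 2 Pro lists. The widest cover of a domain came from a Sen library for 465 domains. A share of domains that is larger or smaller than the background share in the comparisons below therefore partly follows from how they were chosen, and nothing is read from it.

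JUN-family knockdown was compared with Sen by limma on log2 covered width, each library centred on its median over all 37197 regions, with Benjamini-Hochberg adjustment over these regions. After centring, 188 domains (24.8%) were narrower in JUN-KD at an adjusted p under 0.05 and 117 (15.5%) were wider; over all regions 11.6% were narrower and 20.5% were wider. Centring removed a difference of -0.59 (log2) between the library medians of JUN-KD and Sen. Without centring 517 domains were narrower and 1 was wider (all regions 50.3% and 0.438%), and with cyclic loess 255 were narrower and 39 wider (12.7% each). All 188 narrower domains passed in the same direction under the 3 scalings, and 1 of the 117 wider ones did. Leaving out centring moves every difference by -0.59, which works for narrower calls and against wider ones. The contrast between the 2 directions is therefore largely built in. Of those 117, 36 had a positive difference without centring, so their call is a change relative to the median region. With every list shortened to its 58955 strongest peaks 64 were narrower and 80 wider of 639 tested, and without JUN-KD replicate 2 119 were narrower and 65 wider. Against Sen replicates 3 and 4 alone, whose peak names have the style of JUN-KD, 96 were narrower and 55 wider. For shortened lists and left-out libraries, here and below, only domains were counted, without the share over all regions. A changed count is therefore not shown to be particular to domains. The centred widths of the 2 groups did not overlap in 218 domains on the narrower side and in 161 on the wider side (17.3% and 33.1% of all regions). The median difference of the domains was -0.10 (log2) with centring and -0.70 without, against 0.11 and -0.48 for the narrower regions.

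The 188 domains called narrower in JUN-KD were picked by their lower cover there, so the gap to Sen is only a description. The median of their group mean covered widths was 1828 bp in siFOXF1/2, 621 bp in JUN-KD, 1769 bp in Sen and 1289 bp in Pro. At chr2:20423097-20425465, covered width was 162 and 211 bp in JUN-KD against 2080, 2095, 1650 and 1299 bp in Sen, with 2255 and 2058 bp in siFOXF1/2 and 1868 and 2039 bp in Pro. JUN-KD stood apart from all 8 other libraries, and the centred difference from Sen was -2.65 ± 0.15 (log2, SE; limma adjusted p = 4.7e-05). At chr10:124220534-124222849 the widths were 256 and 265 bp in JUN-KD and 2185, 2316, 2012 and 1385 bp in Sen, a difference of -2.30 ± 0.14 (adjusted p = 4.7e-05). A single short peak remained in each JUN-KD list at both places.

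Other domains that narrowed in JUN-KD differed in their level in Pro. At chr19:45655584-45658085 covered width was 260 and 194 bp in JUN-KD, 2389, 2319, 1284 and 908 bp in Sen and 1836 and 1868 bp in Pro, and the JUN-KD difference from Sen was -2.23 ± 0.27 (limma adjusted p = 0.00083). At chr2:64429544-64431657 it was 210 and 179 bp in JUN-KD, 2114, 2084, 1250 and 964 bp in Sen and 271 and 1143 bp in Pro, and the 2 Pro libraries were far apart (difference of JUN-KD from Sen -2.38 ± 0.43, adjusted p = 0.0050, and 0.17 with equal list lengths). At chr12:106639106-106643052, which held 30 peaks over the 10 lists, the second most, it was 492 and 197 bp in JUN-KD against 2874, 2791, 2011 and 1731 bp in Sen (-2.29 ± 0.28, adjusted p = 0.00083). At chr10:74019227-74021344 it was 419 and 194 bp in JUN-KD against 2031, 1971, 1954 and 1648 bp in Sen (-2.14 ± 0.22, adjusted p = 0.00039). The named domains were picked among those whose JUN-KD and Sen libraries did not overlap after centring, so that gap follows from the choice.

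Of the 117 domains called wider in JUN-KD after centring, 24 lay within 1 Mb of a long stretch without peaks, against 2 of the 188 narrower ones and 39 of all 757. At chr2:92294731-92299148, the only domain called wider under all 3 scalings, covered width was 4418 and 3270 bp in JUN-KD against 2701, 2691, 3066 and 3092 bp in Sen (0.99 ± 0.16 centred, limma adjusted p = 0.0036). Away from such stretches, chr3:160166829-160169052 was covered over 1786 and 1771 bp in JUN-KD and 1204, 1487, 1795 and 1354 bp in Sen. Its centred difference was 0.89 ± 0.16 (adjusted p = 0.0050) and 0.30 without centring, and in base pairs the groups overlapped. At chr15:39871648-39874455 the widths were 2578 and 1961 bp in JUN-KD and 1900, 1671, 1999 and 1884 bp in Sen, a centred difference of 0.87 ± 0.14 (adjusted p = 0.0030) and 0.27 without centring. Neither of the last 2 calls held without centring (adjusted p = 0.093 and 0.068).

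**Figure D3:**
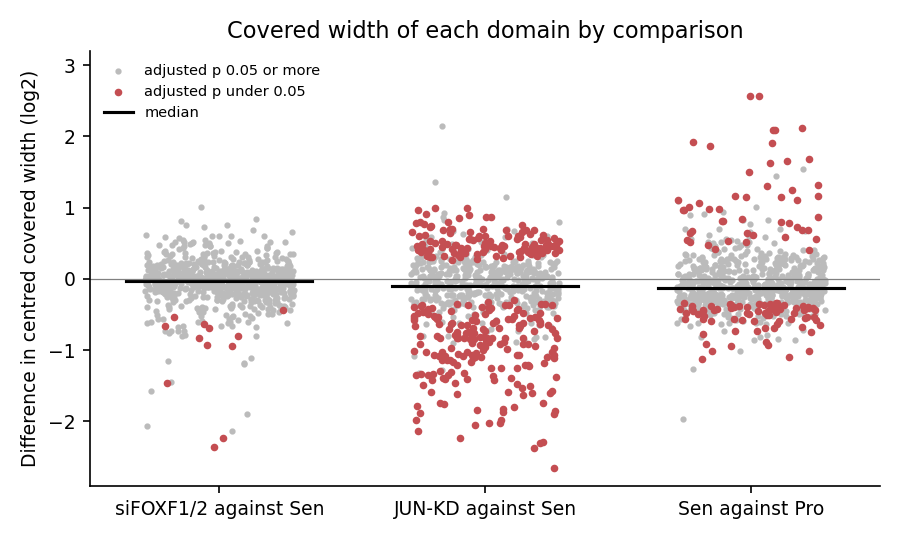
Difference in centred covered width (log2) of each of the 757 domains in the 3 paired-end comparisons, with the group named first above 0 where it is wider; red points have an adjusted p under 0.05 (limma) and the bar is the median. JUN-KD against Sen has 305 called domains in both directions, siFOXF1/2 against Sen has 12, all below 0, and Sen against Pro has 127.

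Entry into senescence was tested with Sen against Pro. After centring, 49 domains (6.47%) were wider in Sen and 78 (10.3%) were narrower, with 6.8% and 4.82% over all regions. Centring removed a difference of 0.35 (log2) between the library medians of Sen and Pro. Without it 139 domains were wider and 4 narrower (19.6% and 0.358% of all regions), and with cyclic loess 86 were wider and 11 narrower (7.47% and 2.59%). All 49 wider domains passed under the 3 scalings and 4 of the 78 narrower ones did, although 74 of the 78 had a negative difference without centring too. Leaving out centring adds 0.35 to every difference, which works for wider calls and against narrower ones. The median difference of the domains was -0.13 (log2) with centring, 0.23 without and 0.08 with loess, so the direction of the typical domain depends on the scaling. The centred widths did not overlap in 110 domains on the wider side and in 238 on the narrower side (15.7% and 27.9% of all regions). With Sen replicates 1 and 2 alone, whose peak names have the style of Pro, 59 were wider and 114 narrower, and with Sen replicates 3 and 4 alone 22 were wider and 55 narrower. Leaving out Pro replicate 1 left 23 wider and 3 narrower, and leaving out Pro replicate 2 left 37 and 19. Leaving out Sen replicate 3 left 34 in each direction, and leaving out Sen replicate 1 left 31 wider and 48 narrower.

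The 49 domains called wider in Sen were picked by their lower cover in Pro, so that gap is only a description. The median of their group means was 1710.75 bp in Sen and 697 bp in Pro. At chr7:105985388-105987464 covered width was 1808, 2065, 1591 and 1535 bp in Sen against 241 and 219 bp in Pro, a difference of 2.57 ± 0.14 (log2, SE; limma adjusted p = 4.0e-05). At chr4:40335892-40338013 it was 1541, 1990, 1147 and 1348 bp in Sen against 200 and 190 bp in Pro (2.57 ± 0.20, adjusted p = 0.00011). Each Pro list held 1 short peak at these places. The JUN-KD libraries had 302 and 327 bp at the chromosome 7 domain and 283 and 260 bp at the chromosome 4 domain, where siFOXF1/2 had 1724 and 1318 bp and 1313 and 1780 bp.

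The other widened domains named were picked by size among called domains whose Sen and Pro libraries did not overlap after centring. The split between Sen and Pro is therefore set by the choice. At chr8:49061879-49064247 covered width was 1771, 1673, 2295 and 1173 bp in Sen and 259 and 367 bp in Pro (2.1 ± 0.19, limma adjusted p = 0.00027). At chr6:108908843-108910931 it was 1438, 1410, 833 and 754 bp in Sen and 182 and 203 bp in Pro (2.12 ± 0.33, adjusted p = 0.0042). At chr9:72694301-72696499 it was 2033, 2043, 1095 and 850 bp in Sen and 166 and 402 bp in Pro (2.09 ± 0.39, adjusted p = 0.0097). At chr15:99751526-99753842 it was 1461, 1467, 1466 and 982 bp in Sen and 411 and 182 bp in Pro (1.93 ± 0.38, adjusted p = 0.012). The chromosome 9 call was lost without Pro replicate 1 (limma adjusted p = 0.11) and the chromosome 15 call without Pro replicate 2 (limma adjusted p = 0.099). With equal list lengths the chromosome 6 and chromosome 8 calls were lost (limma adjusted p = 0.29 and 0.48). JUN-KD and Pro are both compared with the same 4 Sen libraries, so the 2 comparisons share their Sen values. JUN-KD had 460 and 422 bp at the chromosome 8 domain, 167 and 377 bp at the chromosome 6 domain, 445 and 433 bp at the chromosome 9 domain, and 939 and 933 bp at the chromosome 15 domain.

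The domains called narrower in Sen after centring were wide in both conditions. The median of their group means was 1886.5 bp in Sen and 2068 bp in Pro. At chr17:79479152-79482433 covered width was 2284, 2401, 1803 and 1229 bp in Sen against 2686 and 3242 bp in Pro (-1.01 ± 0.16, limma adjusted p = 0.0042). At chr11:35639341-35641361 it was 1684, 1436, 794 and 953 bp in Sen against 1963 and 2008 bp in Pro (-1.12 ± 0.22, adjusted p = 0.011). Without centring the differences were -0.66 and -0.77, and Sen replicates 3 and 4 were the lowest Sen libraries in both. At chr6:45389262-45391801 it was 1512, 1294, 1147 and 1077 bp in Sen against 1916 and 2255 bp in Pro (-1.09 ± 0.29, adjusted p = 0.037). That call was lost whichever of the 6 libraries was left out (limma adjusted p = 0.052 to 0.16), and the chromosome 11 call was lost without Pro replicate 1 or 2 (limma adjusted p = 0.091 and 0.059). The chromosome 17 call was lost without centring (limma adjusted p = 0.092). Of the 78, 8 lay within 1 Mb of a long stretch without peaks, among them chr2:92272963-92277151 with 2485, 2149, 2514 and 2369 bp in Sen against 3777 and 3380 bp in Pro (-0.94 ± 0.15, adjusted p = 0.0041, and 0.054 without Pro replicate 1).

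**Figure D4:**
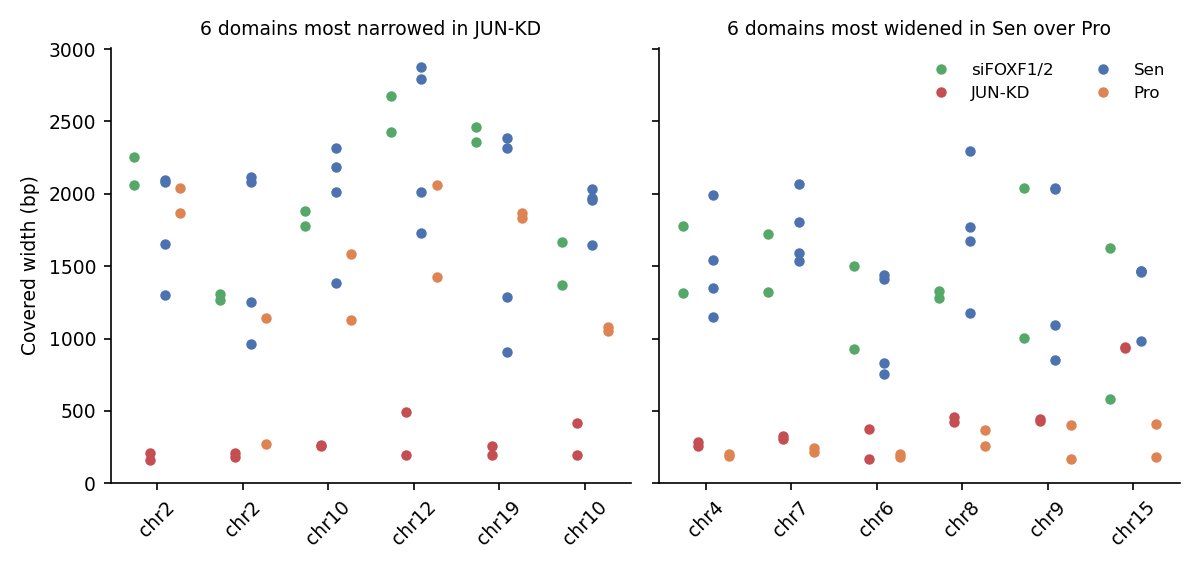
Covered width in bp in every paired-end library of the 6 domains most narrowed in JUN-KD against Sen (left) and the 6 most widened in Sen against Pro (right); points are libraries, coloured by group, and columns carry the chromosome. On the left the JUN-KD libraries lie between 162 and 492 bp, and on the right the Pro libraries lie between 166 and 411 bp.

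Few domains passed the test with FOXF1/2 knockdown. Against Sen, 12 domains (1.59%) were narrower in siFOXF1/2 and 0 were wider after centring, with 0.962% and 0.669% over all regions. At an unadjusted limma p under 0.05, 113 of the 757 domains and 5356 of all 37197 regions differed in either direction. Without centring 5 were narrower and 0 wider (0.436% and 0.605%), and with cyclic loess 6 were narrower and 1 wider (0.858% and 0.468%). The 12 domains were below Sen without centring as well, and 4 of them passed under all 3 scalings. Leaving out 1 library left 5 without Sen replicate 3, 6 without siFOXF1/2 replicate 1 and 5 without siFOXF1/2 replicate 2, and with Sen replicates 3 and 4 as the only controls 19 were narrower and 16 wider. With Sen replicates 1 and 2, which share the peak name style of siFOXF1/2, 6 were narrower and 0 wider. The centred widths did not overlap in 132 domains on the narrower side and in 54 on the wider side (14.2% and 12.1% of all regions). The library medians of siFOXF1/2 and Sen differed by 0.09 (log2), and the median difference of the domains was -0.03 with centring and 0.06 without.

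Of the 12 domains, 4 lay within 1 Mb of a long stretch without peaks. At chr17:22259174-22261877 covered width was 428 and 467 bp in siFOXF1/2 against 2214, 2465, 2235 and 1752 bp in Sen, with 2535 and 1831 bp in JUN-KD and 2158 and 2150 bp in Pro. The siFOXF1/2 libraries stood alone, with a difference of -2.36 ± 0.12 (log2, SE; limma adjusted p = 6.3e-05). At chr17:22251091-22254337 they had 451 and 230 bp against 1426, 763, 1513 and 2454 bp in Sen (-2.23 ± 0.44, adjusted p = 0.037). At chr2:92279223-92284669 they had 1444 and 1026 bp against 3365, 2646, 2211 and 4876 bp in Sen (-1.45 ± 0.31, adjusted p = 0.049). At chr9:66821170-66825353 they had 1540 and 1328 bp against 2487, 2202, 3140 and 2520 bp in Sen (-0.93 ± 0.17, adjusted p = 0.028). The last 3 calls were each lost without siFOXF1/2 replicate 1 (limma adjusted p = 0.13, 0.21 and 0.18) and without siFOXF1/2 replicate 2 (0.21, 0.25 and 0.14). They were also lost without Sen replicate 1, 3 or 4 at chr17:22251091-22254337 (0.064, 0.085 and 0.051), without Sen replicate 1 or 2 at the chromosome 2 domain (0.082 and 0.055) and without Sen replicate 3 or 4 at the chromosome 9 domain (0.054 and 0.061).

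The differences of the other 8 ran from -0.43 to -0.93. At chr15:62745705-62748002 covered width was 1265 and 1094 bp in siFOXF1/2 against 1971, 2038, 2239 and 2164 bp in Sen, with 673 and 721 bp in JUN-KD and 695 and 800 bp in Pro. Sen was the widest group there and siFOXF1/2 came second, with no overlap between groups other than JUN-KD and Pro (difference from Sen -0.93 ± 0.14, limma adjusted p = 0.012; 0.11 without siFOXF1/2 replicate 1 and 0.073 without replicate 2). At chr2:19555454-19558427 it was 1341 and 1370 bp in siFOXF1/2, 606 and 461 bp in JUN-KD, 2681, 2924, 2180 and 1521 bp in Sen and 1082 and 1426 bp in Pro (-0.83 ± 0.17, adjusted p = 0.043). The call at this domain was lost without centring (limma adjusted p = 0.25), without siFOXF1/2 replicate 1 or 2 (0.32 and 0.13) and without Sen replicate 1, 2 or 3 (0.081, 0.063 and 0.087).

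Most domains were a single peak in 7 of the 10 libraries, the exceptions being both JUN-KD libraries and Sen replicate 4. The share of domains with a single peak was 67.4% and 61.3% in siFOXF1/2, 47.2% and 47.6% in JUN-KD, 67.9%, 70.1%, 56.8% and 35.4% in Sen and 56.9% and 65.9% in Pro. Sen replicate 4 was the lowest of the 10 libraries and also had the shortest minimum peak, 136 bp. The mean number of peaks per domain was 1.38 and 1.46 in siFOXF1/2, 1.60 and 1.61 in JUN-KD, 1.34 to 1.85 in Sen and 1.49 and 1.37 in Pro, and the groups overlapped except that JUN-KD lay above siFOXF1/2 and Pro. Domains with 3 or more peaks made up 18.0% of the domains in Sen replicate 4 and 2.11% to 7.79% in the other libraries. With equal list lengths, the ratio of mean peak number was 1.37 for JUN-KD over Sen, against 1.06 in the full lists, and 0.856 for Sen over Pro, against 1.06.

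The uncovered part of the domains was larger at the margins than between peaks in every paired-end library, and the share at the margins was largest in JUN-KD. The share of the merged width outside the outermost peaks averaged 11.7% and 14.9% in siFOXF1/2, 33.7% and 38.9% in JUN-KD, 8.49% to 19.4% in Sen and 27.0% and 23.4% in Pro. Gaps between peaks inside a domain took 5.77% and 7.61% in siFOXF1/2, 14.2% and 14.4% in JUN-KD, 4.95% to 15.3% in Sen and 10.7% and 8.17% in Pro. The highest summit kept its place in most domains. It lay within 200 bp of that in Sen replicate 1 in 78.6% and 77.0% of domains in siFOXF1/2, 72.3% and 70.5% in JUN-KD, 83.9%, 77.0% and 74.2% in the other Sen libraries and 75.2% and 74.8% in Pro.

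Column 7, the authors' fold enrichment at the summit over the local background, was lower in domains than in narrower regions in every library. The median of the highest value in a domain was 8.58 and 8.47 in siFOXF1/2, 7.44 and 7.70 in JUN-KD, 8.11, 8.02, 8.48 and 8.81 in Sen and 10.9 and 10.6 in Pro. As a ratio to the median of the narrower regions it was 0.680 and 0.690 in siFOXF1/2, 0.805 and 0.786 in JUN-KD, 0.684 to 0.690 in Sen and 0.793 and 0.798 in Pro. JUN-KD and Pro lay above Sen and siFOXF1/2 in this ratio, without overlap. The local background behind domains was 6.90 and 7.32 times the genome background in siFOXF1/2, 3.46 and 3.86 times in JUN-KD, 5.20 to 7.02 times in Sen and 6.17 and 7.04 times in Pro. Column 7 divides the summit by this local background.

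The summit pileup, the coverage at the summit that follows from the listed fold and p-value, was higher in domains than in narrower regions in every library. As multiples of the genome background, its median over domains was 63.1 and 65.4 in siFOXF1/2, 28.6 and 34.3 in JUN-KD, 57.2, 59.6, 52.3 and 50.7 in Sen and 74.6 and 80.4 in Pro, and no groups overlapped. Over the narrower regions it was 51.7 and 53.0 in siFOXF1/2, 22.1 and 26.4 in JUN-KD, 45.5, 47.6, 42.2 and 41.7 in Sen and 46.5 and 46.5 in Pro. The ratio of the medians was 1.60 and 1.73 in Pro and 1.21 to 1.30 in the 8 other libraries.

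**Figure D5:**
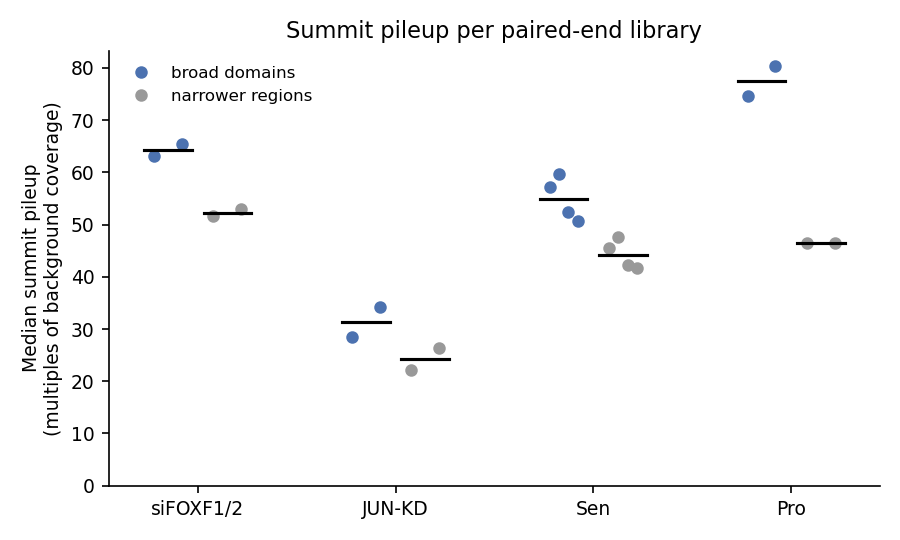
Median summit pileup of the domains and of the narrower regions in each paired-end library, as multiples of the genome background coverage; points are libraries and bars are group means. Pro sits highest in the domains, at 74.6 and 80.4, but within the range of the other non-JUN-KD libraries in the narrower regions, at 46.5.

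Relative to the genome background, senescent cells had lower summits than proliferating cells in most domains. The summit pileup of every Sen library was below that of both Pro libraries in 514 domains (67.9%) and above in 44 (5.81%), against 46.9% and 21.4% of all regions. The median difference was -0.56 (log2) in domains and -0.24 in narrower regions. Column 7 was lower in 515 domains and higher in 19 (44.0% and 13.4% of all regions), with median differences of -0.37 and -0.19. Background coverage was 2.5 to 3.06 in Sen and 1.74 and 1.98 in Pro, and its part in these differences was not tested.

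In JUN-KD, summits relative to the genome background were lower than in Sen, in domains and narrower regions alike. Background coverage was 3.08 and 2.01 in JUN-KD, 2.61 and 1.93 in siFOXF1/2 and 2.5 to 3.06 in Sen. Its part in the differences from Sen given here was not tested. Every JUN-KD library was below every Sen library in summit pileup in 680 domains (89.8%) and above in 41 (5.42%), against 86.1% and 1.61% of all regions. The median difference was -0.81 (log2) in domains and -0.79 in narrower regions. In column 7, 236 domains (31.2%) were lower and 37 higher, against 55.5% and 3.11% of all regions, with median differences of -0.11 and -0.29. With siFOXF1/2 the summit pileup was above Sen in 368 domains and below in 56 (49.4% and 8.51% of all regions), with a median difference of 0.26 in both domains and narrower regions. Column 7 was above Sen in 126 domains and below in 67 (19.5% and 13.3%), with a median difference of 0.02 in both.

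The domains that widened in Sen had lower summits than the typical domain. The median of their group mean pileups was 45.3 in Sen and 41.4 in Pro, against 55.7 and 77.5 over all domains. At chr7:105985388-105987464 the pileup was 52.7, 63.6, 47.4 and 44.0 times the background in Sen and 24.7 and 24.3 times in Pro. At chr6:108908843-108910931 it was 33.8, 40.4, 32.4 and 34.7 in Sen and 36.2 and 42.5 in Pro, so that a domain that widened had overlapping summit heights. The 188 domains that narrowed in JUN-KD had medians of 22 in JUN-KD and 42.2 in Sen, against 31.8 and 55.7 over all domains. At chr2:20423097-20425465 the pileup was 9.74 and 11.9 in JUN-KD and 38.2, 38.8, 26.5 and 24.2 in Sen. The widened domains were picked by low cover in Pro and the narrowed ones by low cover in JUN-KD. Pileup comes from the same peaks as cover, so the lower pileups of these sets are only a description.

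Some domains were picked as highest or lowest by their lowest percentile of column 7 within a list, so their gap in fold follows from the choice. At chr2:92294731-92299148 the value was at or above the 98.5th percentile of each list, and at chr4:68264339-68266758 at or above the 97.8th, with folds of 21.5 and 19.2 in siFOXF1/2, 28.7 and 29.1 in JUN-KD, 23.2 to 29.4 in Sen and 28.1 and 27.2 in Pro. The chromosome 4 domain was 1 peak in every list, covered over 2121 to 2411 bp. At chr7:61967409-61971262, beside a long stretch without peaks, cover was 3678 to 3840 bp in all 10 libraries, and the pileup was 217 and 234 in siFOXF1/2, 798 and 835 in JUN-KD, 339 to 573 in Sen and 712 and 616 in Pro. Lowest was chr8:145016196-145018355, with folds between 2.9 and 4.3 in all 10 libraries but pileups of 79.2 and 86.2 in siFOXF1/2, 37.0 and 44.3 in JUN-KD, 65.1 to 74.4 in Sen and 95.3 and 96.1 in Pro. At chr1:150540292-150544661 the fold was 4.4 and 4.2 in siFOXF1/2, 8.3 and 7.2 in JUN-KD, 3.0, 2.6, 5.5 and 5.6 in Sen and 13.4 and 12.4 in Pro. Its covered width was 2876 and 1997 bp in siFOXF1/2, 1055 and 424 bp in JUN-KD, 897 to 3054 bp in Sen and 888 and 818 bp in Pro.

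The domain with the highest median summit pileup, chosen after its values were seen, was chr21:9825481-9827539. Its pileup was 1935 and 2435 times the background in siFOXF1/2, 977 and 1336 times in JUN-KD, 1577, 1660, 983 and 904 times in Sen and 2265 and 2596 times in Pro. It was covered over 1747 to 2055 bp in the paired-end and 1814 to 1988 bp in the single-end libraries. No other region lay within 50 kb of it.

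Domains were spread over the autosomes with about as many neighbours as narrower regions had. They made up between 1.23% (chromosome 7) and 3.02% (chromosome 17) of the regions held in every list. The number of other regions within 50 kb had a median of 10 for domains and for narrower regions, with quartiles of 6 and 12 against 7 and 13. The nearest other domain lay at a median of 841 kb, and 84 domains (11.1%) had another within 50 kb, 29 of them within 10 kb.

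The single-end libraries, which the choice of domains did not use, listed the domains only in part. A peak lay in 82.8% and 64.7% of domains in sip300/CBP, 66.3% and 26.0% in sip65 and 67.4% and 81.6% in Sen. For narrower regions the shares were 78.7% and 65.5%, 72.3% and 38.0%, and 74.2% and 84.3%. Background coverage was 0.264 and 0.294 in sip300/CBP, 0.314 and 0.195 in sip65 and 0.231 and 0.475 in Sen, below every paired-end library, and the part of depth in these shares was not tested. All 6 lists held 21.9% of domains and 30.7% of narrower regions, and 64 domains (8.45%) were in none, against 6.31% of narrower regions.

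The breadth of the domains was hardly visible in these lists. Where a domain held a peak, its median covered width was 258 and 185 bp in sip300/CBP, 201 and 143 bp in sip65 and 201.5 and 278.5 bp in Sen, against 206 and 177 bp, 196 and 158 bp, and 195 and 225 bp in narrower regions. The mean number of peaks per domain was 1.38 and 0.872 in sip300/CBP, 0.905 and 0.295 in sip65 and 0.918 and 1.36 in Sen. In each group the 2 libraries were far apart. The very wide domains were no wider here, with a median cover of 146 bp for those of 5000 bp or more and 145 bp for those of 2000 to under 2500 bp (median over the 6 libraries, a library with no peak counted as 0).

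No domain passed the test in the single-end comparisons. Of the 11341 regions held in all 16 lists, 166 were domains, and limma called 0 of them in sip300/CBP or sip65 against Sen, with 0.0% of all regions in each direction. At an unadjusted p under 0.05, 20 domains differed in sip300/CBP (1164 of all regions) and 30 in sip65 (958 of all regions), and the lowest adjusted p was 0.073 and 0.095. Without sip65 replicate 1, 2 domains were called narrower in sip65. The centred widths did not overlap in 43 domains on the wider side and 16 on the narrower side in sip300/CBP (26.9% and 19.5% of all regions), and in 21 and 38 in sip65 (22.7% and 16.3%). The median difference of the domains was 0.15 (log2) in sip300/CBP and -0.09 in sip65 with centring, and -0.04 and -0.50 without, against 0.05 and 0.05 with centring in narrower regions.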

How the data were processed

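Per the labels' protocols, ATAC-seq reads were 35 bp pairs or 75 bp single reads. The submitters' processing notes name MACS2 2.1.1, deepTools 3.1.1, SAMtools 1.9, Bowtie2 2.3.4.1 and hg19 with no role; how reads were shifted and peaks called was not given in these sources. The authors deposited 1 peak list per library, with a fold ratio at the summit (column 7), the −log10 of the p-value and q-value, a score and the summit offset in bp. The deposited score was not used.

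Peaks were merged with Python 3.11.15, and covered width, peak number and highest column 7 were taken per region and library. Summit pileup and local background were solved from the deposited fold, (pileup + 1) / (background + 1), and the Poisson −log10 p-value; the genome background is the 1st percentile of local background. limma 3.58.1 (R 4.3.3; trend, two-sided) was fitted on log2 covered width over all groups of a layout and was tested on simulated data. Domains named are the 6 widest, up to 6 with the largest called change in each direction whose groups do not overlap after centring, the 4 with most peaks, the 4 highest and 4 lowest by lowest column 7 percentile, and those at the width limit. The domains and lists were chosen with earlier results of these data known. Alternatives were scaling, a −log10 q of at least 10, equal list lengths, merging, other width limits, left-out libraries, a replicate block and, added after seeing the data, a covariate of shortest peak width and domains under 5000 bp only. Chromosome X was outside the rule.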

Additional observations from a re-analysis of the deposited data

Results flagged for a closer look

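A sample was picked out where its gap to the nearest of the others, divided by the range of its group of 4, was above Dixon's critical value, which chance gives in about 1 in 20 groups. The ratios of the 2 samples below were 0.923 and 0.988. In the domain on chromosome 10 from 42527413, beside a long stretch without listed peaks, Sen replicate 2 was covered over 15436 bp and the other Sen libraries over 17336 to 17494 bp. In the domain on chromosome 15 from 99751526, called wider in Sen than in Pro, Sen replicate 4 was covered over 982 bp and the other Sen libraries over 1461 to 1467 bp.

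Chromosome X was left out of the domains by their definition, and it held signal of the same kind. Of its 3536 merged regions, 760 carried a peak in every paired-end list, and 11 of these were 2000 bp or wider.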

How the results depend on the processing

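The number of domains was 757 as reported, 706 with a −log10 q of at least 10, 605 with equal list lengths and 770 with peaks up to 100 bp apart merged. For Sen against Pro, 127 domains were called. The count was 77 with Sen replicates 3 and 4 only, 57 with equal list lengths, 209 with shortest peak width as a covariate, 26 to 184 with 1 library left out, 601 of 3423 domains of 1500 bp or more and 10 of 57 of 3000 bp or more. For siFOXF1/2 against Sen, 12 were called. The count was 6 with Sen replicates 1 and 2 only, 35 with Sen replicates 3 and 4 only (16 wider, 19 narrower), 7 with cyclic loess, 5 without centring, 5 to 12 with 1 library left out (5 without Sen replicate 3, 6 without siFOXF1/2 replicate 1, 5 without siFOXF1/2 replicate 2), 49 at 1500 bp and 3 at 3000 bp. For JUN-KD against Sen, 305 were called. The count was 151 with Sen replicates 3 and 4 only, 144 with equal list lengths (80 wider, 64 narrower), 518 without centring, 184 to 348 with 1 library left out (184 without JUN-KD replicate 2), 1351 at 1500 bp and 33 at 3000 bp (24 wider, 9 narrower). In the single-end libraries the count stayed at 0 for sip300/CBP with 1 library left out and was 0 to 2 for sip65 (2 without sip65 replicate 1). The ratio of mean peak number with equal list lengths was 0.856 for Sen over Pro, 1.37 for JUN-KD over Sen and 1.30 for sip65 over Sen (1.06, 1.06 and 0.527 in full lists). Apart from the change of scaling, calls under these settings were counted in domains only, without the share over all regions. A shift in a count is therefore not shown to be particular to domains. The cause of these shifts was not tested.

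Deviations of libraries with the same replicate number correlated between -0.08 and 0.08 in the paired-end and -0.08 and 0.09 in the single-end set. These values gave no sign that the numbers pair the libraries. Among the Sen libraries, JUN-KD was set only against replicates 1 and 2 here. Its pairing with the other Sen libraries, which share its peak name style, was not tested. With replicate number as a block the counts were 144 for Sen against Pro, 0 for siFOXF1/2 against Sen and 360 for JUN-KD against Sen. In the single-end set they were 1 for sip300/CBP and 2 for sip65. Among the paired-end Sen libraries only replicates 1 and 2 share their number with another group. The blocked paired-end comparisons therefore rest on those Sen libraries alone. For JUN-KD these controls have the other peak name style.

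For the named domains, recomputed calls stayed past the threshold 318 times, fell below it 81 times and never changed direction. The domains recomputed were picked as the largest called changes whose groups did not overlap after centring. Keeping their direction was therefore largely set by the choice. The peak lists hold no counts, so no interval or floor was computed, and the part of depth in the single-end lists was not tested.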
